A study of Homo sapiens with 7 samples.

Results

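HERV-Fc1 and HERV-Fc2 are small groups of human endogenous retroviruses, and this section describes the double-stranded RNA counted on their proviruses and solitary long terminal repeats (LTRs). Members were all repeat families whose name starts with HERV-Fc: the internal regions HERV-Fc1-int and HERV-Fc2-int, and the LTR families HERV-Fc1_LTR1, HERV-Fc1_LTR2, HERV-Fc1_LTR3 and HERV-Fc2_LTR. They make up 6 of the 498 families counted in both deposited sets, and 39 of the 703140 annotated copies in the second set. The group was picked because its reads were already known to be more numerous in treated than in PBS libraries, so these levels are given as a description, and the calls of a fit over all families, given near the end, are not independent evidence on them.

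RNA was pulled down with J2, an antibody against double-stranded RNA, from lysates of HCT116, a human colon carcinoma line. Every treatment was sequenced once in each set: set 1 comprises PBS, 5-Aza-CdR and Combination libraries, and set 2 adds a Vc library to the same treatments. The labels give every sample the same protocol, 0.3 µM 5-Aza-CdR (a nucleoside analogue that blocks maintenance of DNA methylation) with fresh medium after 24 h and culture to day 5, name the treatment of each library in a separate tag, and give no dose for Vc and no recipe for the Combination. The published study describes Vc as vitamin C and the Combination as vitamin C together with 5-Aza-CdR. Whether the sets come from separate cultures is not stated in the labels.

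An endogenous retrovirus is the inherited remnant of an ancient infection, built as an internal region with the gag, pol and env genes between a pair of LTRs. The 5′ LTR carries the promoter, and recombination between the LTRs often leaves a solitary LTR. Such promoters are commonly silenced by DNA methylation in somatic cells, and RNA transcribed from both strands of a provirus can pair into double-stranded RNA, which the cytoplasmic sensor MDA5 recognises. HERV-F elements belong to the gammaretrovirus-like class and are named for the phenylalanine tRNA that matches their primer binding site. The counts carry no read strand, so sense and antisense reads could not be separated.

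The X chromosome carries a single HERV-Fc provirus in the annotation, labelled HERV-Fc2, and RefSeq places the protein-coding gene ERVFC1, which encodes a retroviral envelope protein, on the same chromosome, between the protein-coding genes RPA4 and PCDH19. The gene symbol uses FC1 where the repeat name uses Fc2. The gene and the provirus were not matched by position, because the RefSeq table uses GRCh38.p14 and the counts use hg19. The RefSeq promoter window of ERVFC1 is shown because the X provirus held the most HERV-Fc reads in each 5-Aza-CdR and Combination library. It covers chrX:97841496-97841795 (GRCh38.p14, plus strand), and the capitals mark the motifs TATAAA and AATAAA.
ERVFC1: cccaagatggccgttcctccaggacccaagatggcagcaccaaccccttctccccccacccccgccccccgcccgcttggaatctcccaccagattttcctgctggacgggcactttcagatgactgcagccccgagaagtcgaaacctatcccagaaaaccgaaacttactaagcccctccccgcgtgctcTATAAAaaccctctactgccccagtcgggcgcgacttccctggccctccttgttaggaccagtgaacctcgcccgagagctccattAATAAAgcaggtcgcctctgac
Both strands were searched, and each motif occurred once, on the gene's strand, with no overlap between them. TATAAA, the core of a TATA box, starts 58 bases before the annotated gene start, and AATAAA, the letters of a polyadenylation signal, starts 28 bases after it. Of 35116 RefSeq promoter windows of this length, 11.5% hold TATAAA and 17.4% hold AATAAA on either strand. The window holds 16 CpG dinucleotides, the sites that DNA methylation modifies, against a median of 14 over all windows, and 47.5% of windows hold at least as many. These matches describe the letters only.

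HERV-Fc reads were nearly absent from PBS and Vc and present after 5-Aza-CdR and the Combination in both sets. Summed over the members, set 1 had 0 reads in PBS, 13 after 5-Aza-CdR and 68 after the Combination. Set 2 had 1 read in PBS, 3 after Vc, 51 after 5-Aza-CdR and 171 after the Combination. PBS, 5-Aza-CdR and Combination stood in the same order in both sets, and neither PBS library reached the level of a 5-Aza-CdR or Combination library. Libraries held 11531 to 32403 reads in their family sheets, which limits every statement on low counts below.

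As a share of family reads, HERV-Fc held 0.113% (95% Wilson interval 0.0659 to 0.193) after 5-Aza-CdR and 0.475% (0.375 to 0.602) after the Combination in set 1. In PBS of set 1, 0 reads allow a share of up to 0.0130%. In set 2 the share was 0.00514% (0.00091 to 0.0291) in PBS, 0.0162% (0.0055 to 0.0477) after Vc, 0.217% (0.165 to 0.285) after 5-Aza-CdR and 0.528% (0.454 to 0.613) after the Combination. The intervals of the 5-Aza-CdR and Combination libraries did not overlap within a set, and those of PBS and Vc did. Reads were counted without molecular identifiers, so these intervals, the 0-count limits and those below cover counting error only. A larger share can come from more double-stranded RNA per cell or from more cells that hold it, and these cannot be told apart.

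**Figure D1:**
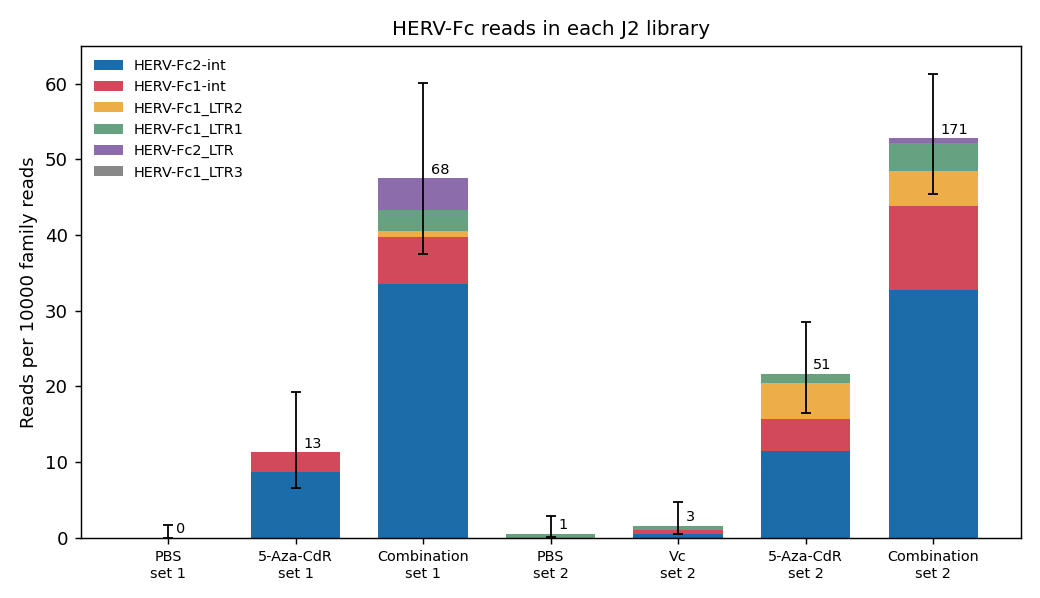
HERV-Fc reads per 10000 family reads (y axis) in the 7 libraries (x axis), stacked by member family; error bars are 95% Wilson intervals of the HERV-Fc sum, and the printed numbers are its read counts. The Combination libraries, with 68 and 171 reads, stand highest in their sets, and PBS and Vc hold at most 3 reads.

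Among the internal regions, HERV-Fc2-int went from 0 reads in PBS to 10 after 5-Aza-CdR and 48 after the Combination in set 1. In set 2 it had 0 reads in PBS, 1 after Vc, 27 after 5-Aza-CdR and 106 after the Combination. For HERV-Fc1-int, set 1 gave 0 reads in PBS, 3 after 5-Aza-CdR and 9 after the Combination, while set 2 gave 0 in PBS, 1 after Vc, 10 after 5-Aza-CdR and 36 after the Combination. Both internal regions were highest in the Combination library of their set. Per kb of annotated sequence in the Combination library of set 2, HERV-Fc2-int held 8.77 reads and HERV-Fc1-int 1.41.

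The LTR families, which hold the promoters, were sparser in absolute reads. HERV-Fc1_LTR1 was at 0 in PBS and 5-Aza-CdR of set 1 with 4 reads in its Combination, and set 2 gave 1 in PBS, 1 after Vc, 3 after 5-Aza-CdR and 12 after the Combination. HERV-Fc1_LTR2 had a single Combination read in set 1, and in set 2 was at 0 in PBS and Vc, with 11 reads after 5-Aza-CdR and 15 after the Combination. HERV-Fc2_LTR had reads only in the Combination libraries, 6 in set 1 and 2 in set 2. HERV-Fc1_LTR3 was at 0 in all 7 libraries. The LTRs therefore differed between the sets: HERV-Fc1_LTR2 led them in set 2 and HERV-Fc2_LTR in set 1. Internal regions carried 83.8% (73.3 to 90.7) of HERV-Fc reads in the Combination of set 1 and 83.0% (76.7 to 87.9) in that of set 2. Per kb the LTR families lay on both sides of the internal regions. In the Combination of set 2, HERV-Fc1_LTR1 held 2.03 reads per kb and HERV-Fc1_LTR2 11.7, above the 1.41 of HERV-Fc1-int. All 15 HERV-Fc1_LTR2 reads there lay on a chromosome 11 copy that adjoins HERV-Fc2-int, so the family values compare different loci. In the same library HERV-Fc2_LTR held 2.21, below the 8.77 of HERV-Fc2-int, and HERV-Fc1_LTR3 held none. In the Combination of set 1 HERV-Fc2_LTR stood higher, with 6.62 from 6 reads, and HERV-Fc2-int held 3.97. There HERV-Fc1_LTR1 (0.675) and HERV-Fc1_LTR2 (0.780, from 1 read) were again above HERV-Fc1-int (0.353).

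Of the 498 families, 23 had 0 reads in both PBS libraries, and 19 of these had reads in at least 1 of the 4 libraries treated with 5-Aza-CdR or the Combination. HERV-Fc2-int headed them with 191 reads summed over those 4 libraries, followed by HERV-Fc1-int with 58 and HERV-Fc1_LTR2 with 27. The next, LTR35B and HERV-Fc2_LTR, had 8 each.

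Of the 39 copies 26 had at least 1 read, and 1 of them, the internal region on chromosome X, held 164 of the 307 reads. Rows within 1 kb of each other were joined, which gave 21 loci, 9 of them with an internal region and 12 of LTRs alone; 8 and 4 of these had any read. Loci with an internal region, 42570 bp in all, held 298 of the 307 reads, and LTR-only loci, 5525 bp in all, held 9. In the Combination of set 2, 18 of the 39 copies (46.2%) had reads, against 2.08% of all annotated copies. Of the 8 HERV-Fc copies of at least 1000 bp, 7 had reads there, against 13.3% of all 30331 copies of that length. In PBS of set 2 these numbers were 0 of 8 and 7.32%.

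The X provirus held more HERV-Fc reads than any other locus in each 5-Aza-CdR and Combination library. It runs from 97096480 to 97104422 on the plus strand of chromosome X (hg19), with a HERV-Fc2-int row of 7197 bp between LTRs of 376 and 370 bp. In set 1 its reads numbered 0 in PBS, 6 after 5-Aza-CdR and 50 after the Combination. In set 2 they numbered 0 in PBS, 0 after Vc, 21 after 5-Aza-CdR and 95 after the Combination, so no untreated library and no Vc library held a read of it. In set 1 it held 46.2% (23.2 to 70.9) of HERV-Fc reads after 5-Aza-CdR and 73.5% (62.0 to 82.6) after the Combination. In set 2 the percentages were 41.2 (28.8 to 54.8) and 55.6 (48.1 to 62.8). Its share was higher after the Combination in both sets, and the intervals overlapped.

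Nearly all of these reads fell on the internal region, which makes up 7197 of the 7943 annotated bp. The HERV-Fc2-int row of the X provirus had 44 and 93 reads in the Combination libraries of set 1 and set 2. Its 5′ LTR had 4 and 1, and its 3′ LTR 2 and 1. Per kb, the 5′ LTR, internal row and 3′ LTR held 10.6, 6.11 and 5.41 reads in the Combination of set 1. In the Combination of set 2 they held 2.66, 12.9 and 2.70. After 5-Aza-CdR alone both LTRs were at 0 in both sets, where the internal row had only 6 and 21 reads. Ranked by reads, the internal row stood 62nd of 712115 annotated copies after 5-Aza-CdR and 9th after the Combination in set 1. In set 2 it stood 51st and 6th of 703140. Ranked by reads per kb among copies of at least 1000 bp, it stood 677th and 41st in set 1 and 375th and 71st in set 2, so part of its place among all copies goes with its length.

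**Figure D2:**
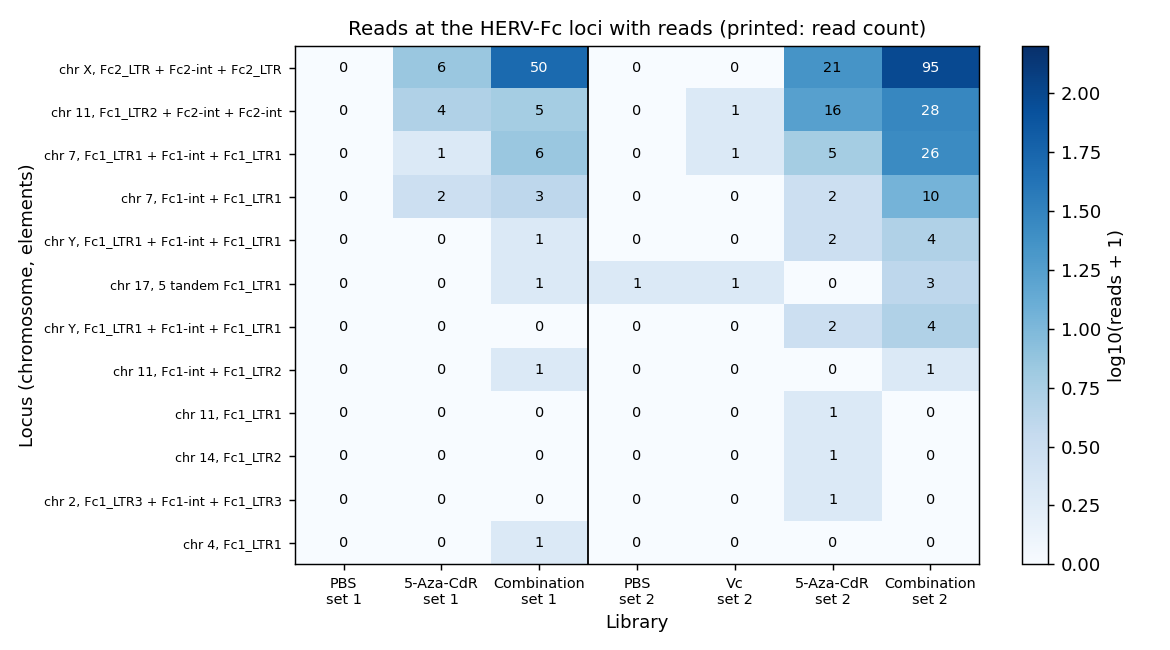
Read counts (printed in each cell; colour, log10 of reads + 1) at the 12 HERV-Fc loci with at least 1 read (rows) in the 7 libraries (columns, set 1 left of the line). The X provirus is the darkest row, with 50 and 95 reads in the Combination libraries, and the PBS columns are at 0 except for 1 read on chromosome 17.

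Chromosome 7 carries 2 HERV-Fc1 loci with an internal region. The one with an LTR at each end (64295273 to 64300536, minus strand) gave 0, 1 and 6 reads in PBS, 5-Aza-CdR and Combination of set 1. In PBS, Vc, 5-Aza-CdR and Combination of set 2 it gave 0, 1, 5 and 26. The one with only its 5′ LTR annotated (153106483 to 153111238, minus strand) gave 0, 2 and 3 reads in the same order in set 1, and set 2 gave 0, 0, 2 and 10. Both were highest in the Combination library of each set, the second in set 1 by 3 reads against 2. HERV-Fc1-int of the first held 4.59 reads per kb in the Combination of set 2 and that of the second 2.27, beside 12.9 for the internal region of the X provirus.

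The chromosome 2 copy (84101057 to 84106618, minus strand) has an internal region of 4610 bp between HERV-Fc1_LTR3 elements. It had the fewest reads of the loci with an LTR at each end, 1 in all, after 5-Aza-CdR in set 2. The other HERV-Fc1_LTR3 rows were solitary, and the family had no read.

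The chromosome 11 provirus was read in different places in the sets. Its 5′ part (5949578 to 5954967, plus strand) is a HERV-Fc1_LTR2 followed by 2 rows of HERV-Fc2-int, and its 3′ part (5956478 to 5959584), over 1 kb away and so a locus of its own in the counts above, is HERV-Fc1-int and a second HERV-Fc1_LTR2. In set 2 the 5′ LTR had 10 reads after 5-Aza-CdR and 15 after the Combination, and the adjoining internal row of 829 bp had 6 and 12. The following internal row, of 4065 bp, had 0 and 1. In set 1 most reads lay on the 4065 bp row, with 4 and 4. The 5′ LTR had 0 and 1, and the 829 bp row 0 and 0. Per kb in the Combination of set 1, the 5′ LTR held 2.35, from 1 read, and the 4065 bp row 0.984. The 3′ part had 1 read in each Combination library and 0 elsewhere. The 5′ LTR reached 35.3 reads per kb in the Combination of set 2, against 11.7 for HERV-Fc1_LTR2 as a family. In the same library HERV-Fc1_LTR1 held 2.03 as a family, and its copies at the chromosome 7 locus with 2 LTRs held 8.75 and 5.78. The sets also differ in named processing, since Bowtie2, Picard and marked duplicates are given for set 2 only, and the part of this in the difference was not tested.

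**Figure D3:**
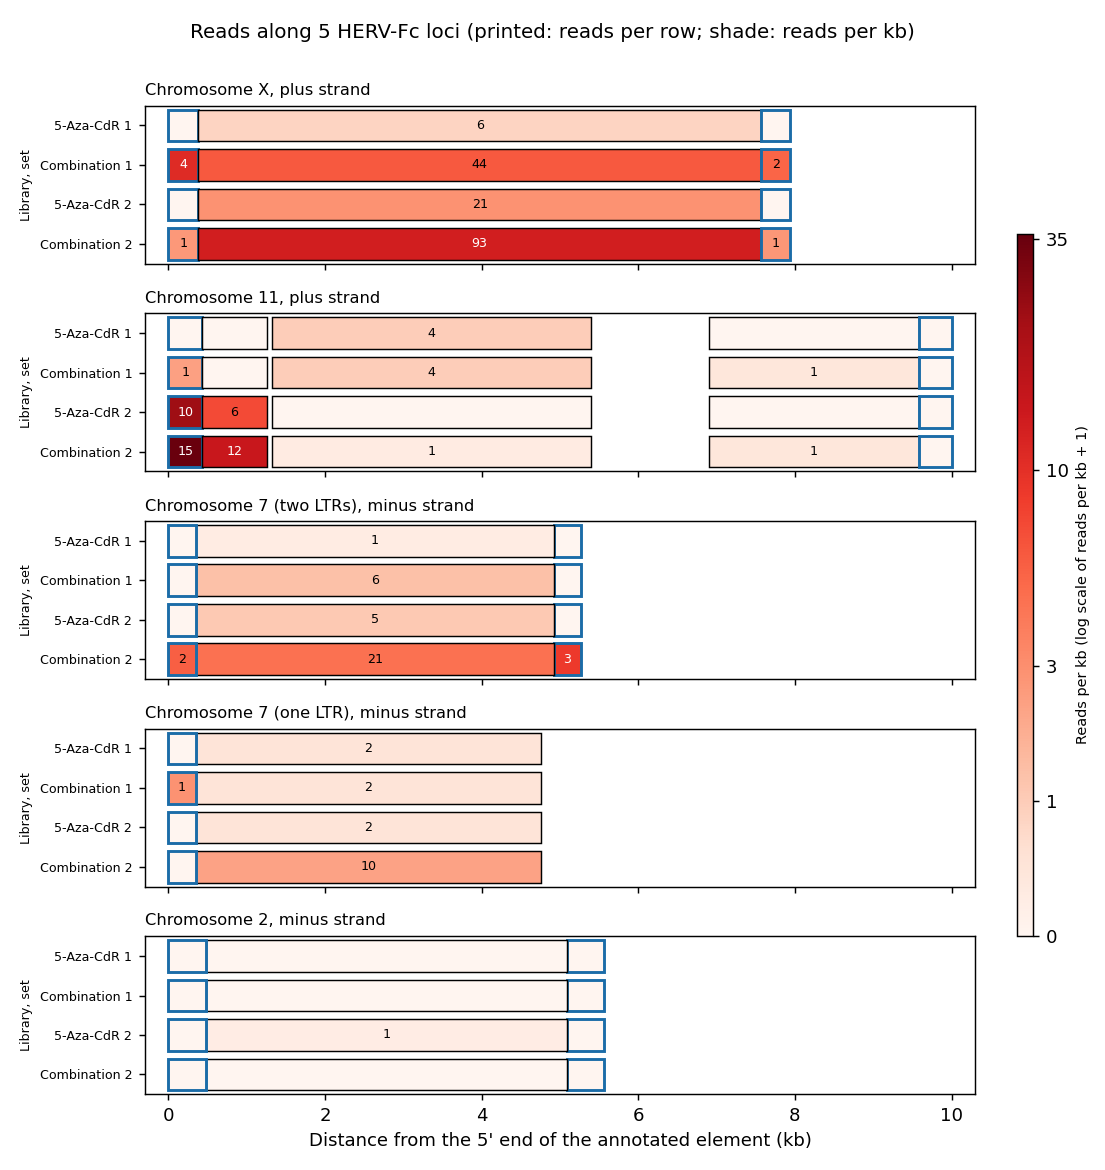
Annotated rows of 5 HERV-Fc loci (x axis, distance from the 5′ end in kb; blue outlines, LTRs; black outlines, internal regions) in the treated libraries (y axis), with the reads of each row printed and shaded by reads per kb. Most reads of the X provirus are on its internal row (44 and 93 after the Combination), while on chromosome 11 they sit in the 5′ LTR (10 and 15) and the adjoining row (6 and 12) in set 2 and in the longer row (4 and 4) in set 1.

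The Y chromosome carries 2 HERV-Fc1 copies on opposite strands (19721609 to 19726866, plus; 20452908 to 20458166, minus), whose row lengths mirror each other. In set 2 each had 2 reads after 5-Aza-CdR and 4 after the Combination. Row by row the counts were equal: each internal region had 1 and 2 reads, and each 3′ LTR had 1 and 2. In set 1 there was 1 read, on the 5′ LTR of the plus-strand copy. The sources used here do not give the handling of reads with more than 1 possible position, and whether the same reads were counted on both copies was not tested. The minus-strand copy holds 6 of the set 2 reads.

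The only PBS read on any HERV-Fc row, in set 2, lay in a tandem array of 5 HERV-Fc1_LTR1 rows on chromosome 17 (26592608 to 26595680, plus strand). This array also had 1 of the 3 Vc reads, 3 Combination reads of set 2 and 1 of set 1. The other Vc reads were 1 on HERV-Fc1-int of the chromosome 7 copy with 2 LTRs and 1 on HERV-Fc2-int of chromosome 11. The X provirus had none in Vc, where 0 of 18495 family reads allow a share of up to 0.0162%, taking 3 reads as the limit (Wilson upper limit 0.0208%). With 1 and 3 reads, the ratio of Vc to PBS was 3.09 with an interval of 0.248 to 162, so no difference was detectable at this depth.

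Repeats around the proviruses carried few reads, as did most annotated copies: 2.08% of all copies had reads in the Combination of set 2. Whether these surroundings differ from other regions was not tested. Within 100 kb of the X provirus, 53 other annotated repeat rows held 1 read in all, in the Combination of set 2, against 172 on the provirus. Around the 5′ part of the chromosome 11 provirus, 38 rows held 1 read, and around the chromosome 7 locus with 1 LTR, 90 rows held 1. Around the chromosome 7 locus with 2 LTRs, 55 rows held 12 reads, 6 of them in the PBS and Vc libraries of set 2. The tandem array on chromosome 17 differed, with 23 reads on 39 neighbouring rows, of which 3 were in PBS and 8 in Vc of set 2. Other transcripts and unannotated sequence near the loci were not analysed here.

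Relative to PBS, ratios used library sizes normalised by the trimmed mean of M-values (TMM), with 3 counts as the floor for a library without reads. In set 1 the summed HERV-Fc reads were 8.67-fold above the PBS floor after 5-Aza-CdR (lower 95% limit of the ratio to PBS 6.10). After the Combination they were 38.2-fold above it (lower limit 30.2). The floor values leave out the counting error of the treated library, which the lower limits include. With tRNA numbers as library size the floor values were 26.4-fold (lower limit 18.6) and 331-fold (262). The tRNA numbers were 232558 in PBS, 38200 after 5-Aza-CdR and 15946 after the Combination, so this scaling raises the ratios of every family. LTR12C, an LTR family of the HERV-9 group, went from 12.6 and 17.2 with TMM to 38.5 and 149 with tRNA numbers. In set 2, against 1 PBS read, the ratios were 56.0 (exact conditional binomial 95% interval 9.61 to 2256) and 146 (25.9 to 5816). The X provirus, at 0 in both PBS libraries, was 4.00-fold above the floor after 5-Aza-CdR in set 1 (lower limit 2.35). In set 2 it was 7.69-fold above it (5.72). After the Combination the X provirus was 28.1-fold above the floor in set 1 (22.0) and 27.1-fold in set 2 (21.6). Against Vc in set 2, the Combination had 47.4 times the HERV-Fc reads (15.96 to 232), and 5-Aza-CdR 18.2 times (5.87 to 90.9).

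The Combination libraries held more HERV-Fc reads than the 5-Aza-CdR libraries. For the members together the ratio was 4.41 (2.41 to 8.70) in set 1 and 2.61 (1.90 to 3.65) in set 2, and with tRNA numbers, which exist for set 1, it was 12.5 there. The X provirus gave 7.02 (3.01 to 20.0) and 3.53 (2.18 to 5.96). All other HERV-Fc rows gave 2.17 (0.864 to 6.14) and 1.97 (1.28 to 3.12). Among these, HERV-Fc1_LTR2 gave 1.06 (0.456 to 2.56) in set 2, where it had the most reads of the LTR families. The 5′ part of the chromosome 11 provirus gave 1.05 (0.227 to 5.31) and 1.36 (0.713 to 2.70). The chromosome 7 locus with 2 LTRs gave 5.06 (0.613 to 233) and 4.05 (1.53 to 13.5). The chromosome 7 locus with 1 LTR gave 1.26 (0.145 to 15.1) and 3.90 (0.830 to 36.6), and both of these intervals span 1. The ratio of the X provirus was above that of the chromosome 11 locus in both sets, and the difference between loci was not tested. LTR12C, the LTR family of the HERV-9 group with the most reads in the treated libraries, gave 1.36 (1.29 to 1.45) and 1.31 (1.27 to 1.36). With tRNA numbers LTR12C gave 3.88 in set 1.

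**Figure D4:**
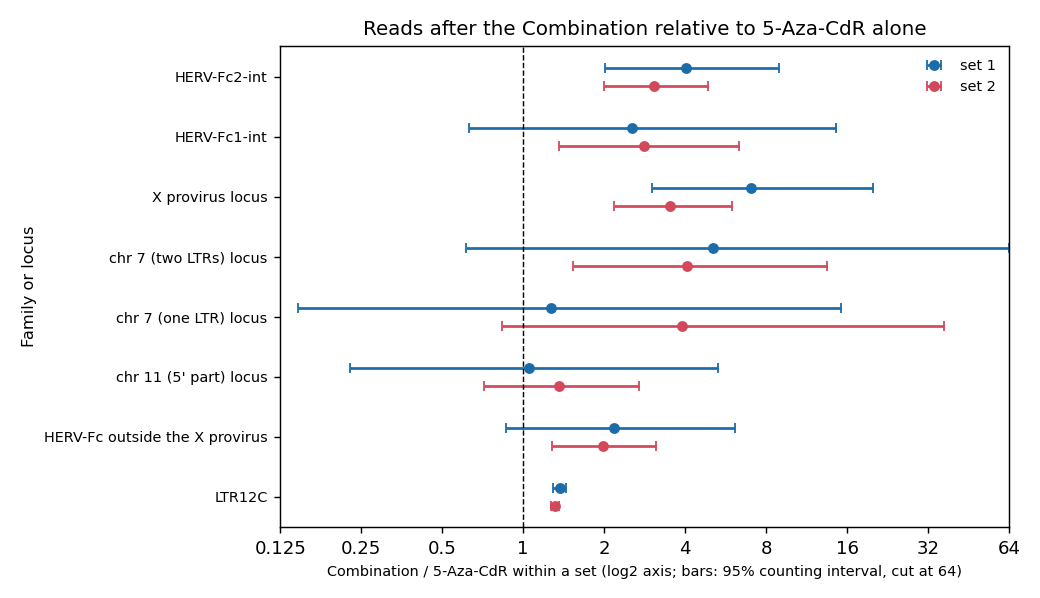
Reads after the Combination divided by reads after 5-Aza-CdR (x axis, log2 scale) for HERV-Fc families and loci and for LTR12C (y axis), with 95% counting intervals, in set 1 (blue) and set 2 (red). The X provirus lies at 7.02 and 3.53 and LTR12C at 1.36 and 1.31; intervals of the loci with few reads span 1.

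Among 279 families with at least 30 reads over the treated libraries, HERV-Fc2-int ranked 5th in set 1 and 3rd in set 2 by the ratio of Combination to 5-Aza-CdR. HERV-Fc1-int ranked 15th and 4th. It met the minimum only through its Combination reads, 9 and 36, beside 3 and 10 after 5-Aza-CdR. The members were chosen with this contrast known, so the ranks are a description. The median family had a log2 ratio of 0.00 in set 1 and 0.01 in set 2, and HERV-Fc2-int had 1.96 and 1.59 on the same scale, with 0.5 added to each count.

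All 7 libraries were also fitted together with edgeR's quasi-likelihood test, with treatment and set as terms, on 352 families that passed the filter on low counts. HERV-Fc2-int and HERV-Fc1-int passed this filter, and the 4 LTR families did not. The filter could only be met through the treated libraries, and the members were chosen on these contrasts, so the calls are a description. After 5-Aza-CdR, 1 of the 2 (HERV-Fc2-int) was called higher at an adjusted p under 0.05, beside 1.42% of all families called, and the call was lost without set as a block (0 called). After the Combination both were called higher, beside 2.27% of families called higher and 2.56% called in either direction. The call of HERV-Fc1-int was lost without the block and without the Combination library of set 2, which left 1 call each time. For the Combination against 5-Aza-CdR 0 were called, beside 0.0% of families (9 of 352 at an unadjusted p under 0.05; in DESeq2 0 called and 2 unadjusted), and the fitted log2 differences were 1.78 (SE 0.42) for HERV-Fc2-int and 1.42 (SE 0.73) for HERV-Fc1-int. Since each treatment has at most 2 libraries, and nothing says that they are separate cultures, the fit measures only the spread between these libraries.

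Families related to HERV-Fc were read beside it. HERVFH19-int and HERVFH21-int, the internal regions of other HERV-F groups, with LTR19 and LTR21, and the HERVH and LTR7 families numbered 15, of which 9 were tested. In edgeR, 0 of 9 passed in each of the 3 contrasts (2, 1 and 0 at an unadjusted p under 0.05 for 5-Aza-CdR against PBS, the Combination against PBS and the Combination against 5-Aza-CdR), and in DESeq2 also 0 (1, 0 and 0 unadjusted). Their median log2 changes were 0.05, 0.05 and -0.21, beside -0.02, -0.07 and -0.00 over all 352 families. HERVFH21-int gave 14, 2 and 14 reads in PBS, 5-Aza-CdR and Combination of set 1. In PBS, Vc, 5-Aza-CdR and Combination of set 2 it gave 11, 9, 6 and 7, so both PBS libraries held reads of it. HERVFH19-int had 3 to 6 reads in every library. LTR7Y gave 9, 22 and 15 reads in PBS, 5-Aza-CdR and Combination of set 1, and LTR19B gave 2, 0 and 4. In PBS, Vc, 5-Aza-CdR and Combination of set 2, LTR7Y gave 11, 13, 27 and 27, and LTR19B 4, 3, 20 and 18. Both were thus higher after 5-Aza-CdR and the Combination than in PBS of set 2. The highest fitted changes in the list were those of LTR7Y after 5-Aza-CdR (1.83, SE 0.52, adjusted p = 0.155 in edgeR), of LTR19B after the Combination (1.82, SE 1.04, adjusted p = 0.612) and of HERVFH21-int in the Combination against 5-Aza-CdR (1.11, SE 0.85, adjusted p = 0.999).

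The families whose profile over the 7 libraries was most like that of HERV-Fc2-int were sought by the root mean square difference of log2 counts scaled to library size (CPM), each profile centred within its set. Families needed at least 30 reads, which left 339. The smallest differences were those of LTR12C (0.75), HERV-Fc1-int (0.80), LTR12 (0.96), LTR12E (1.01) and LTR12B (1.22), against a median of 2.23. HERV-Fc1-int met the minimum only through its 5-Aza-CdR and Combination reads. Both internal regions were picked for being higher in treated libraries, so their likeness is a description. A prior count of 2 was added before the log, which sets the PBS level of a family without PBS reads. How far the differences from the LTR12 families depend on this count was not tested. Unlike the HERV-Fc internal regions, these LTR12 families were present in PBS: LTR12C had 286 and 851 reads, LTR12 33 and 25, LTR12E 7 and 13, and LTR12B 5 and 2 in set 1 and set 2.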

How the data were processed

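J2-bound RNA from HCT116 was sequenced in 7 libraries. The authors deposited a raw read count per repeat family and per annotated copy in 2 sets; per the file headers, a ratio sheet of set 1 divides family counts by tRNA reads, and the tRNA numbers were recovered from it. Per the labels the build is hg19 and RNA was sheared to about 200 bp before a small-RNA library kit; for set 2, Bowtie2 and Picard are listed in the submitters' processing notes. Other aligners and counting tools are not given in the sources used here. No gene was counted, so the cell line label could not be checked against markers.

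Member counts were read from the family sheets, and sums over copies were equal to them. Copy lengths came from the coordinates, given 1-based. Shares carry Wilson 95% intervals and ratios exact conditional binomial intervals (SciPy 1.17.1). The joint fit used edgeR 4.0.16 in R 4.3.3 with TMM, the default filter and Benjamini-Hochberg adjustment over all families tested, and was tested on simulated data; DESeq2 1.42.0 was an alternative. Set is the workbook named in each sample's description and was a block in the fit. Named were all members, copies with at least 5 reads and locus summaries. The list of related families took names starting with LTR7 only where no further digit follows. The members and lists were chosen with earlier results of these data known, and comparisons with PBS share its libraries. The mirrored Y copies, ratios of single loci and ranks per kb were added after seeing the data.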

Additional observations from a re-analysis of the deposited data

How the results depend on the processing

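Ratios of the HERV-Fc sum, HERV-Fc2-int and HERV-Fc1-int were recomputed under 5 other library sizes, of which tRNA numbers exist for set 1 only. Where both libraries had reads, 61 of 63 lay within the counting interval of the main value, 2 outside it and 0 changed direction. Single loci and LTR families were not among these. For the Combination against 5-Aza-CdR, the chromosome 11 5′ part went from 1.05 to 0.962 with locus totals in set 1. HERV-Fc1_LTR2 went from 1.06 to 0.990 with total family reads in set 2. In set 1 the rows outside the X provirus gave 6.16 with tRNA numbers, outside the main interval (0.864 to 6.14). By tRNA numbers the Combination of set 1 had 12.5 times the summed HERV-Fc reads of 5-Aza-CdR, and 3.88 times its LTR12C reads. Of 41 ratios against the floor of a library at 0, 31 moved by at most 1.5 times. The other 10, all in set 1 with locus or tRNA totals, moved by more. For the summed HERV-Fc reads of set 1 against PBS these were 14.8 and 26.4 after 5-Aza-CdR and 59.4 and 331 after the Combination. As a share of the locus sheets, where HERVE_a-int holds most reads of set 1, HERV-Fc was 0.0332% after 5-Aza-CdR and 0.134% after the Combination. Joining rows within 10 kb gave 11 loci with reads in place of 12.

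The number of families called after 5-Aza-CdR was 11 with total family reads, 11 with no filter on low counts and 0 with no replicate block (20 at an unadjusted p under 0.05), and ran from 1 to 75 when each library was left out in turn (39 without PBS of set 1, 75 without PBS of set 2, 1 without 5-Aza-CdR of set 1 and 10 without the Combination of set 2). HERV-Fc families among them numbered 2, 2 and 0, and 1 to 2 on leaving out a library (2 without PBS of set 1). After the Combination 17, 15 and 2 families were called, and 6 to 66 without single libraries (31 without PBS of set 1 and 66 without PBS of set 2). With no replicate block, which dropped the pairing of libraries by set, 1 HERV-Fc family (HERV-Fc2-int) was called, and leaving out single libraries gave 1 to 2; HERV-Fc1-int was lost without the Combination library of set 2. For the Combination against 5-Aza-CdR 0 to 11 families were called on leaving out libraries (11 without PBS of set 1 and 2 without PBS of set 2), and 0 to 1 of HERV-Fc: HERV-Fc2-int was called without PBS of set 1 or without PBS of set 2. The causes were not tested. Counts of at most 15 reads at most loci limit what single copies can show.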
